A study of Homo sapiens with 9 samples.

Results

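FEV, GATA2, GATA3 and LMX1B are 4 of the 34961 genes in a table of RNA sequencing counts from human stem cells on their way to serotonin neurons. They were taken by gene symbol, and each symbol matched 1 gene identifier. The cells were the embryonic stem cell line WA09, widely called H9. Every library carried the same genotype, a TPH2-EGFP knock-in that places a green fluorescent reporter at the tryptophan hydroxylase gene of serotonin neurons, and every library carries the same label for treatment, an induced differentiation toward serotonin neurons. The 3 libraries of Day42 are labelled TPH2-positive serotonin neurons, the 3 of Day21 neural progenitor cells and the 3 of Day0 embryonic stem cells. The labels number these libraries as biological replicates but leave unsaid whether each was its own differentiation, so the p-values reflect spread among the libraries and that spread may be technical. Nor do they say how the Day42 cells were separated from other cells.

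Serotonin neurons of the hindbrain arise from ventral progenitors and switch on a small set of transcription factors as they leave the cell cycle. In mice, these factors act together on the genes for serotonin synthesis, packaging and reuptake, and several are needed to keep those genes on in the adult, which is why they are called terminal selectors. FEV (Pet1 in mice) is an ETS domain factor, GATA2 and GATA3 are zinc finger factors of which GATA2 acts earlier, and LMX1B is a LIM homeodomain factor. None of the 4 is restricted to serotonin neurons: GATA2 and GATA3 also work in blood, placenta and other neurons, and LMX1B also works in midbrain dopamine neurons, limb and kidney.

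The promoter windows of FEV, of its neighbour CRYBA2, of GATA3 and of TPH2 are shown because these 4 genes were high together on Day42. Each window, from RefSeq on GRCh38.p14, runs from 250 bases before to 50 bases after an annotated start, 5′ to 3′ on the gene's own strand. Where RefSeq gave several starts, as for the 6 windows of GATA3, the one nearest the principal start of GENCODE was taken. Capitals mark 3 short motifs that were chosen with the FEV window in view. They are the GATA core GATAA or its reverse complement TTATC, the homeodomain core TAATTA, which is its own reverse complement, and the ETS core CGGAA or its reverse complement TTCCG.
FEV, chr2:218985135-218985434, minus strand: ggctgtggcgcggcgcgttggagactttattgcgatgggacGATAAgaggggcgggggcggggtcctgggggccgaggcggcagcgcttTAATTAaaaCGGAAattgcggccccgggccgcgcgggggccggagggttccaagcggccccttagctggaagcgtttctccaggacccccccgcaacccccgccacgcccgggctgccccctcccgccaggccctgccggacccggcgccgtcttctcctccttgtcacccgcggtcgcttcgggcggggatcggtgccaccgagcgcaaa
CRYBA2, chr2:218993373-218993672, minus strand: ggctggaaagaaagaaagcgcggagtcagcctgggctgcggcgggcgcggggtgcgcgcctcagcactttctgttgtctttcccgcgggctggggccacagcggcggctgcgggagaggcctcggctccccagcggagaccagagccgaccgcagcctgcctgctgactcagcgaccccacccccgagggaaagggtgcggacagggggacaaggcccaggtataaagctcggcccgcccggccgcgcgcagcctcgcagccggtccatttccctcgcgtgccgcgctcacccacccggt
GATA3, chr10:8054438-8054737, plus strand: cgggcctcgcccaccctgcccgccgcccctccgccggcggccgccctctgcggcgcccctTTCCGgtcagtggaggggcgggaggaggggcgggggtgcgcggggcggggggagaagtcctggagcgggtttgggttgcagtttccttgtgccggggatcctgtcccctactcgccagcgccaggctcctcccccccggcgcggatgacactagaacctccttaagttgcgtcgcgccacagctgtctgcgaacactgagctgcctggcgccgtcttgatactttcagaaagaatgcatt
TPH2, chr12:71938595-71938894, plus strand: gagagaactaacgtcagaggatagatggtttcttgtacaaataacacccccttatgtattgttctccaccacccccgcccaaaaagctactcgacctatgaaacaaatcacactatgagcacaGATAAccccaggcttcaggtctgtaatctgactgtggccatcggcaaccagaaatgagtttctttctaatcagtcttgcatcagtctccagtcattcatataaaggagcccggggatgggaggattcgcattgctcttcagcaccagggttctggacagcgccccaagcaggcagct

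The FEV window held 1 match to each of the 3 motifs, which did not overlap. Counted from the RefSeq start of the window, the GATA core began at position -209, the TAATTA core at -161 and the ETS core at -152. That start lies 473 bases from the principal start of GENCODE, against 122 bases for the GATA3 window shown and 1 for TPH2. Among all 34943 windows of that length, 22.8% held the GATA core on either strand, 4.85% the TAATTA core, 34.8% the ETS core and 0.389% all 3. Because the motifs were chosen with the FEV window in view, its holding all 3 was fixed by that choice. The shares therefore do not measure how unusual this window is. The GATA3 window shown held an ETS core at -190, and the TPH2 window held a GATA core at -127. Of the 6 GATA3 windows, 1 held a GATA core and 2 an ETS core. No match to these letters was found in the CRYBA2 window, in either GATA2 window or in the LMX1B window. A match is a run of letters and not a measured binding site. The FEV, GATA3, GATA2 and LMX1B windows had GC contents of 71.7%, 69.3%, 72.3% and 75.3%, with 37, 29, 29 and 42 CpG pairs, while the TPH2 window had 48.7% GC and 7 CpG pairs. The median of all windows was 58.7% GC and 14 CpG pairs.

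Total counts were 58526466 to 69658328 per library, and 20156 genes passed the filter on low counts and were tested. Counts piled up at multiples of 4, so a count of 0 was read as allowing up to 3 such steps, or 12 counts, per library. This limit averaged 0.146 CPM on Day42, 0.203 CPM on Day21 and 0.227 CPM on Day0, and it covers counting error only. CPM divides each count by the library total after TMM scaling in edgeR. FPKM is the authors' value per gene length and library total, used here where levels of different genes are compared. The ratios to antisense genes are an exception and are in counts. A gene was called where edgeR's quasi-likelihood test gave a Benjamini-Hochberg adjusted p under 0.05 over all genes tested and the log2 fold change was at least 1 in size. Day42 replicate 3 stood apart from its group. It held 10797 genes above 0, against 16077 and 17101 in Day42 replicates 1 and 2, 24577 to 24740 in Day21 libraries and 22198 to 24358 in Day0 libraries. Of 10240 genes with at least 100 counts in both other Day42 libraries, 2825 (27.6%) were at 0 in replicate 3. Where leaving it out changed a call of the 4 genes or moved their values much, both values are given. For other genes and for the lists, such values are given only in part.

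The 4 genes fell into 3 patterns. FEV was nearly silent on Day0, had 16 to 60 counts on Day21 and reached the top 1% of detected genes on Day42, at almost the same level in the 3 libraries. GATA3 had 16 to 39 counts per library until Day21, just above the limit for a count of 0, and was high on Day42, with a wider spread between libraries. GATA2 and LMX1B stayed low, and on Day42 they differed from each other in the library that carried them. The plot of raw counts by library shows these patterns.

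**Figure D1:**
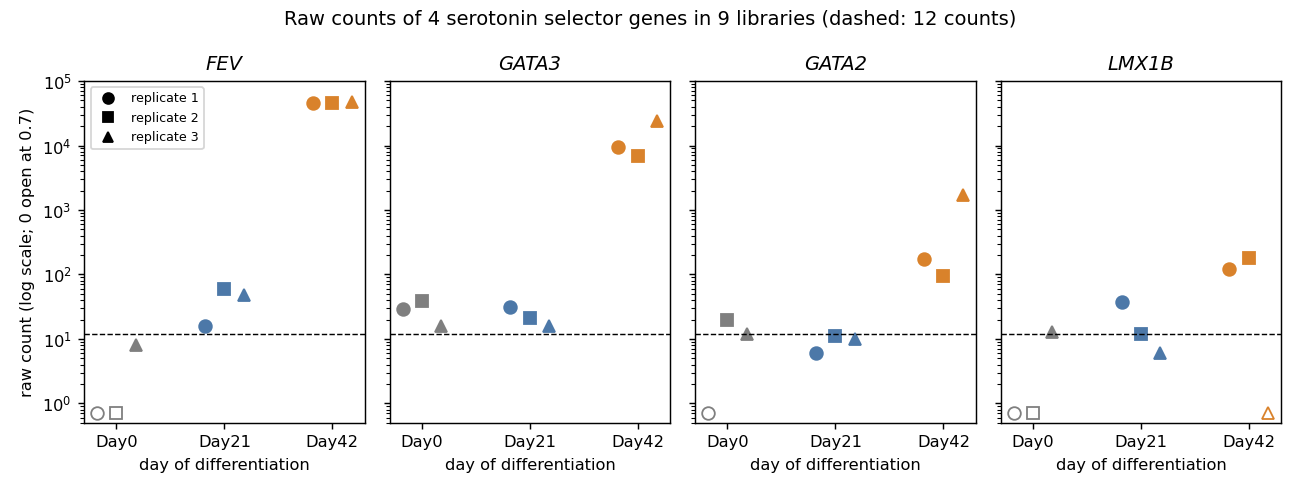
Raw counts of FEV, GATA3, GATA2 and LMX1B (log axis) in each of the 9 libraries, by day of differentiation, with the replicate number as the symbol, 0 drawn open and a dashed line at 12 counts. The 3 Day42 points coincide for FEV at 45210 to 47020 counts, are highest in replicate 3 for GATA3 and GATA2, and are highest in replicate 2 for LMX1B, which is at 0 in replicate 3.

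FEV (ENSG00000163497, chromosome 2, 218981087 to 218985184 on the minus strand of GRCh38) had 0, 0 and 8 counts on Day0, 16, 60 and 48 counts on Day21, and 45210, 46411 and 47020 counts on Day42. In FPKM the Day0 libraries held 0, 0 and 0.0606, the Day21 libraries 0.116, 0.453 and 0.371, and the Day42 libraries 412, 409 and 380.4. Each later day lay above the earlier one in every library. Its mean of 561 ± 16.3 CPM on Day42, against 0.732 ± 0.448 CPM on Day21 (SD, n = 3 each), was a rise of 9.58 ± 1.19 on the log2 scale (SE, edgeR adjusted p = 0.00142). Against the Day0 mean of 0.0435 ± 0.0753 CPM, the rise to Day42 was 13.49 ± 1.40 (edgeR adjusted p = 0.000458). Its size rests on 8 Day0 counts in 1 library, and it was 18.17 without Day0 replicate 3 and 8.62 to 18.17 over all alternatives. In bulk samples such as these, a change in the share of cells that express a gene and a change in the RNA per cell cannot be told apart.

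The first step of FEV was small in counts. All 3 Day21 libraries lay above all 3 Day0 libraries, as did those of 24.7% of the genes tested, and the difference of 3.90 ± 1.05 was not called (edgeR adjusted p = 0.0775). The call depended on single libraries. Leaving out Day0 replicate 3, which held the only Day0 counts, gave 8.59 (edgeR adjusted p = 0.0421), and leaving out Day42 replicate 3 gave 3.84 (edgeR adjusted p = 0.0363). The Day0 mean lay under the limit for a count of 0, so the size of this step, like that of the rise from Day0 to Day42, cannot be read from the counts.

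FEV was among the most abundant transcripts on Day42. By FPKM it ranked 78th of 16077 detected genes in replicate 1, 69th of 17101 in replicate 2 and 103rd of 10797 in replicate 3. The coefficient of variation of its CPM over the 3 Day42 libraries was 2.90%, against a median of 32.5% over the 3444 genes whose mean FPKM reached 10, of which 0.784% had a smaller one. Without TMM scaling, FEV had a CPM of 760.7, 759.9 and 675.0 in replicates 1, 2 and 3. GATA3 had a coefficient of variation of 66.0%, LMX1B 89.6% and GATA2 136.6%, as drawn in the histogram of this spread.

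**Figure D2:**
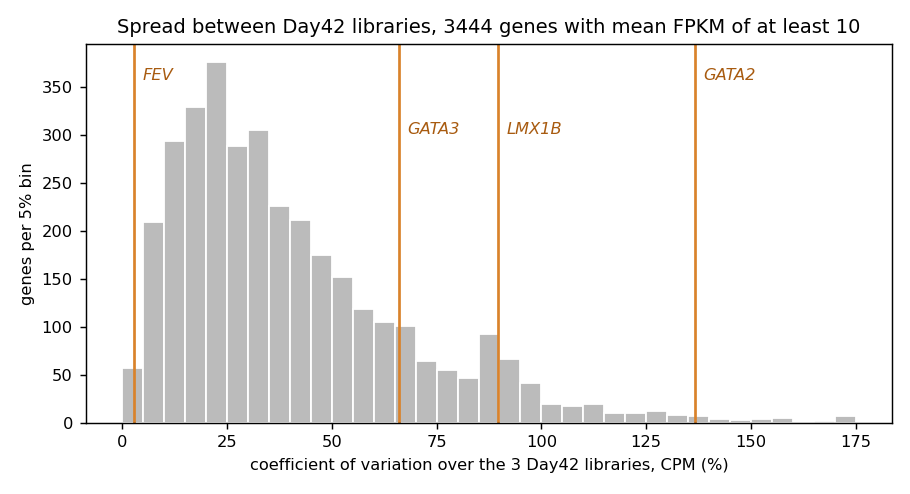
Coefficient of variation of TMM-scaled CPM over the 3 Day42 libraries (x axis, %) for the 3444 genes whose mean FPKM reached 10, as genes per bin (grey bars), with a line for each of the 4 selector genes. FEV lies in the lowest bin at 2.90%, and GATA3 lies above the median of 32.5% at 66.0%. GATA2 and LMX1B are drawn for position only, since their mean FPKM was under 10.

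GATA3 (ENSG00000107485, chromosome 10, 8045378 to 8074890 on the plus strand) had 29, 39 and 16 counts on Day0, 31, 21 and 16 counts on Day21, and 9558, 6986 and 24117 counts on Day42. The Day0 and Day21 libraries overlapped and all Day42 libraries lay far above both. Its mean of 163.6 ± 107.9 CPM on Day42, against 0.374 ± 0.0807 CPM on Day21 (SD, n = 3 each), was a rise of 8.76 ± 0.76 (edgeR adjusted p = 0.000352). Against 0.540 ± 0.243 CPM on Day0, the rise was 8.24 ± 0.75 (edgeR adjusted p = 0.000263). Between Day21 and Day0 the difference was -0.52 ± 0.56 (edgeR adjusted p = 0.823), and it was called in 0 of 18 alternatives.

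On Day42, GATA3 stood at 40.4, 28.6 and 90.5 FPKM in replicates 1, 2 and 3, which ranked 1176th, 1504th and 580th among detected genes. The ratio of FEV to GATA3 in FPKM was 10.2, 14.3 and 4.20 in these libraries. FEV was thus the higher of the pair in every Day42 library, and the ratio was lowest in replicate 3. Replicate 3 held 2.79 times the mean GATA3 CPM of the other Day42 libraries and 0.991 times their mean FEV CPM.

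GATA2 (ENSG00000179348, chromosome 3, 128479427 to 128493201 on the minus strand) had 0, 20 and 12 counts on Day0, 6, 11 and 10 counts on Day21, and 173, 95 and 1706 counts on Day42. The Day42 libraries lay above all others, and replicate 3 held most of the counts. Mean levels were 7.86 ± 10.7 CPM on Day42 and 0.156 ± 0.0607 CPM on Day21 (SD, n = 3 each), a rise of 5.64 ± 1.81 that passed the threshold narrowly (edgeR adjusted p = 0.04997). Against 0.186 ± 0.182 CPM on Day0, the rise was 5.38 ± 1.78 (edgeR adjusted p = 0.0484). Each call was kept in 5 of 16 alternatives. Without Day42 replicate 3 the differences were 3.42 and 3.14, and neither was called (edgeR adjusted p = 0.0912 and 0.101). The Day21 and Day0 means both lay under the limit for a count of 0, so no fold is given between them and the size of the rise over either is uncertain.

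In FPKM, GATA2 stood at 0.549, 0.293 and 4.86 in Day42 replicates 1, 2 and 3. GATA3 exceeded GATA2 by 73.6, 97.6 and 18.6 times in the same libraries. Replicate 3 held 12.1 times the mean GATA2 CPM of the other Day42 libraries. Of the genes tested, 686 (3.40%) had a CPM in replicate 3 at least 5 times that of both other Day42 libraries. The part of this library's low gene count in the GATA2 value was not tested.

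LMX1B (ENSG00000136944, chromosome 9, 126613928 to 126701032 on the plus strand) had 0, 0 and 13 counts on Day0, 37, 12 and 6 counts on Day21, and 120, 178 and 0 counts on Day42. The days overlapped, because Day42 replicate 3 had none. Its means were 1.21 ± 1.09 CPM on Day42 and 0.288 ± 0.2225 CPM on Day21 (SD, n = 3 each), a difference of 2.06 ± 2.07 that was not called (edgeR adjusted p = 0.550). Against 0.0707 ± 0.122 CPM on Day0, the Day42 difference was 4.04 ± 2.27 (edgeR adjusted p = 0.222) and the Day21 difference 1.98 ± 2.10 (edgeR adjusted p = 0.815). The Day0 mean lay under the limit for a count of 0, and without Day0 replicate 3 these were 9.31 and 7.26, also not called. Without Day42 replicate 3 the Day42 differences were 2.64 over Day21 and 4.60 over Day0, again not called (edgeR adjusted p = 0.233 and 0.0648). In Day42 replicates 1 and 2, LMX1B reached 0.270 and 0.388 FPKM, which ranked 12783rd of 16077 and 13091st of 17101 detected genes. Of 880 genes with 50 to 300 counts in both of these libraries, 472 (53.6%) were at 0 in replicate 3, so a 0 there was common at this level.

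Over the 4 genes, edgeR called 0 between Day21 and Day0, where 2.5% of the genes tested were called in either direction and 1.32% were called higher. Of the 4, FEV alone had an unadjusted p under 0.05 there, where 3398 of 20156 genes tested had one. DESeq2 called 1 of the 4, where it called 1387 genes higher and 1565 lower. Limma's voom with library weights called 2 of the 4, where it called 3734 genes higher and 3191 lower. Between Day42 and Day21, 3 of 4 were called higher, where 6.52% of the genes tested were, and the same 3 had Day42 libraries wholly above Day21 libraries, where 11.1% of the genes tested did. Between Day42 and Day0, 3 of 4 were called higher, where 8.82% of the genes tested were, and the same 3 had Day42 libraries wholly above Day0 libraries, where 11.4% did. Without filtering, or with only the days compared in the model, 2 of 4 were called in each comparison with Day42. Without filtering, 901 of 34961 genes were called higher over Day21 and 1365 over Day0. With only the days compared, 1030 of 17731 were called higher over Day21 and 1204 of 17486 over Day0. The median change of all genes tested was -0.54 between Day42 and Day21, and the changes given are as fitted, not relative to it.

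The difference between the second step (Day42 over Day21) and the first (Day21 over Day0) was tested directly, as a contrast chosen after the data were seen. For GATA3 the second step exceeded the first by 9.28 ± 1.23 on the log2 scale (edgeR adjusted p = 0.00424), and this was called in 17 of 17 alternatives. For FEV the excess of 5.68 ± 1.80 was not called (edgeR adjusted p = 0.0714, 6 of 17 alternatives called). It was 0.98 without Day0 replicate 3 (edgeR adjusted p = 0.897) and 5.78, and called, without Day42 replicate 3 (edgeR adjusted p = 0.0430), so single libraries decide it. No size is given for GATA2, whose Day21 and Day0 means both lay under the limit, or for LMX1B, and neither was called by edgeR. The plot of fitted changes shows the steps side by side.

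**Figure D3:**
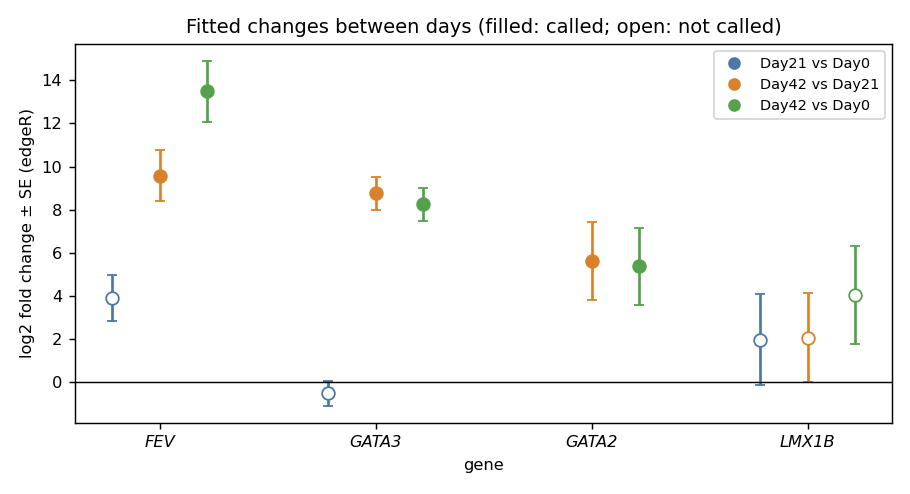
Fitted log2 fold changes (y axis, edgeR, ± SE) of FEV, GATA3, GATA2 and LMX1B for Day21 against Day0, Day42 against Day21 and Day42 against Day0, with filled points where the change was called. FEV, GATA3 and GATA2 are filled in both comparisons with Day42, LMX1B is open in all 3, and no value is drawn for GATA2 between Day21 and Day0, where both days were under the limit for a count of 0.

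The chromosomal neighbours of each gene were described by the rule of all genes within 50 kilobases. CRYBA2, which encodes a lens crystallin, lies 5005 bases from FEV on the same strand, beyond the FEV start. Day0 libraries held 0, 9 and 0 counts of it, Day21 libraries 9, 33 and 48, and Day42 libraries 24932, 20537 and 26664. Its rise to 292.6 ± 43.8 CPM on Day42, against 0.534 ± 0.373 CPM on Day21, was 9.10 ± 1.38 on the log2 scale (edgeR adjusted p = 0.00284), and its Day42 libraries lay above all others. FEV exceeded CRYBA2 by 1.67, 2.09 and 1.63 times in FPKM in Day42 replicates 1, 2 and 3. The other tested neighbours did not pass the test with all libraries in the fit. CDK5R2, a neuronal activator of CDK5, had 209, 416 and 0 counts on Day42 against 96, 8 and 0 on Day21 (edgeR adjusted p = 0.590). CFAP65, a cilium protein gene, had 931, 157 and 0 counts on Day42 against 25, 15 and 26 on Day21 (edgeR adjusted p = 0.223). It was called in 2 of 16 alternatives, 1 of them a fit that left out a single library (edgeR adjusted p = 0.0138). KRT8P30 and the gene listed as AC097468, 19184 bases from FEV, had 0 counts in every Day42 and Day21 library, and neither was tested. LINC00608, whose span overlaps FEV on the other strand, was at 0 in all Day42 libraries.

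GATA3 and GATA2 each overlap an antisense gene. GATA3-AS1 had 642, 1739 and 1754 counts on Day42, against 4, 0 and 34 on Day21, a difference of 6.19 ± 2.03 that was not called (edgeR adjusted p = 0.0539, 7 of 18 alternatives called). GATA2-AS1 had 253, 134 and 1190 counts on Day42 and 0 in all Day21 libraries (edgeR adjusted p = 0.0198, 11 of 16 alternatives called). Its Day42 mean was at least 31.0-fold higher, but most of that mean came from replicate 3. Replicates 1 and 2 taken alone give a smaller bound. GATA3 exceeded its antisense gene by 14.9, 4.02 and 13.75 times in counts over Day42 replicates 1, 2 and 3, while GATA2 stood at 0.684, 0.709 and 1.43 times its own. These ratios are not scaled for gene length, so they do not rank the genes by abundance. No source used here states whether counting used strand, so reads from a gene and its antisense partner cannot be told apart. TMED10P2, a pseudogene 44819 bases from GATA2, had 168 counts in Day42 replicate 2 and 0 in every other library. AL390294, which overlaps GATA3 on the same strand, had 24, 46 and 0 counts on Day42 and none before. TAF3, a general transcription factor subunit 28747 bases from GATA3, had 1314, 1405 and 7729 counts on Day42 against 1912, 1352 and 1282 on Day21 (0.73 ± 0.67, edgeR adjusted p = 0.511), and its highest value was also in replicate 3. Without that library its change was -0.59. Neither neighbour of LMX1B was tested: AL161908 had 57, 0 and 0 counts on Day42 against 8, 4 and 0 on Day21, and AL161731 had 0 on Day42 against 0, 5 and 0 on Day21.

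**Figure D4:**
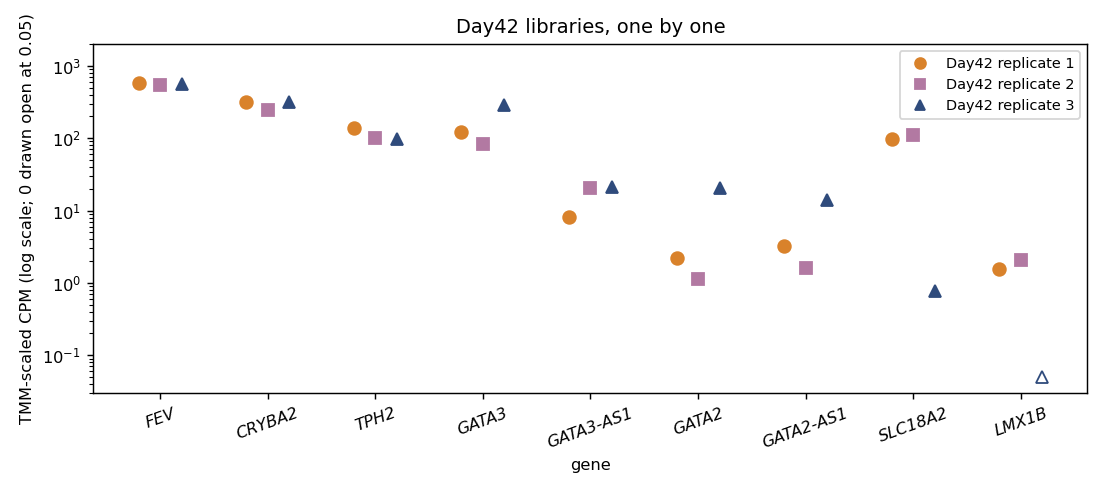
TMM-scaled CPM (log axis) of 9 genes in each Day42 library, with 0 drawn open. FEV, CRYBA2 and TPH2 lie close together over the 3 libraries, GATA3, GATA2 and GATA2-AS1 are highest in replicate 3, and SLC18A2 and LMX1B are lowest there.

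Libraries of a day share the same stage and cell label, so Pearson's r of log2 CPM is given as a description with no test. It was used to find the genes whose profile over the 9 libraries was most like each selector. For FEV these were CDK17 (0.991), ANKRD36 (0.989), SCG2 (0.988) and FGF13 (0.988), with 638 tested genes above 0.9. For GATA3 they were RND3 (0.996), MAP2K4 (0.994), DCLK1 (0.993) and MAOB (0.9925), with 621 above 0.9. For GATA2 they were TGOLN2 (0.977), ZNF626 (0.974), VWC2 (0.970) and GNPAT (0.966), and for LMX1B PPP2R5B (0.972), SEZ6L (0.970), NEXMIF (0.966) and INSYN1 (0.9595). The LMX1B list shared its gap: these 4 genes had 4, 0, 0 and 0 counts in Day42 replicate 3. Between selectors, r was 0.921 for FEV and GATA3, 0.860 for GATA2 and GATA3 and 0.837 for FEV and GATA2. LMX1B gave 0.500 with FEV, 0.271 with GATA3 and 0.0916 with GATA2.

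Genes for serotonin synthesis, packaging and reuptake include known targets of these factors. A list of 16 such genes, with genes for monoamine breakdown and serotonin receptors among them, had 15 tested. Between Day42 and Day21, 7 rose and 1 fell, where 6.52% of all genes tested rose and 19.7% fell, with a median change of 0.25 beside -0.54 for all genes tested. TPH2, the rate-limiting enzyme of serotonin synthesis in neurons, had 10730, 8567 and 8258 counts on Day42 against 0, 4 and 4 on Day21 (11.16 ± 1.26, edgeR adjusted p = 0.000984). The Day42 cells are labelled TPH2-positive, so the TPH2 rise, which is among the 7, goes with the label of the group and is not a separate result. FEV exceeded TPH2 by 18.5, 23.8 and 25.0 times in FPKM in these Day42 libraries. DDC, the next enzyme, rose by 5.74 ± 0.32 (edgeR adjusted p = 0.00029) and had already risen by Day21. MAOB, which breaks down monoamines, rose by 10.42 ± 0.50 (edgeR adjusted p = 6.14e-05), and the 3 other called genes with rises were TPH1, GCH1 and PTS. MAOA, the other monoamine oxidase, fell to 0, 4 and 0 counts on Day42, against 108, 30 and 52 on Day21 (edgeR adjusted p = 0.0285), a call kept in 7 of 16 alternatives. SLC18A2, which loads serotonin into vesicles, had 7596, 9399 and 65 counts on Day42 against 2, 4 and 8 on Day21 (9.71 ± 1.82, edgeR adjusted p = 0.00565). SLC6A4, the serotonin reuptake transporter, was at 0 in all Day42 libraries and had 0, 0 and 10 counts on Day21.

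Of 14 factors that act before the selectors, in the progenitor, 0 rose and 6 fell between Day42 and Day21, where 19.7% of the genes tested fell, with a median change of -4.50, or -3.62 with genes at 0 set at their bound. GLI2, an effector of Hedgehog signals, had 0 counts in all Day42 libraries against 3449, 1624 and 1091 on Day21, at least 227-fold lower (edgeR adjusted p = 0.00132). HES5, a Notch target, was at 0 as well and at least 83.8-fold lower (edgeR adjusted p = 0.0049), and NKX6-1, a ventral progenitor factor, was at least 31.9-fold lower (edgeR adjusted p = 0.00819). For none of the 14 was an unadjusted p under 0.05 with a rise. DESeq2 called 0 higher and 6 lower, where it called 2121 of all 20156 genes higher and 5094 lower. FOXA2 had 0, 291 and 0 counts on Day42 and NKX2-2 196, 723 and 0, and neither was called (edgeR adjusted p = 0.343 and 0.695). In Day42 replicate 3, 0 of the 14 exceeded the limit of 12 counts, and their summed FPKM was 0.0092 against 5.60 and 20.1 in replicates 1 and 2. Without that library, 0 rose and 8 fell, where 2416 of 21827 genes tested rose and 4859 fell.

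Of 15 other transcription factors of the serotonin lineage and hindbrain, 10 were tested, and 0 rose and 3 fell between Day42 and Day21, where 6.52% of all genes tested rose and 19.7% fell. Without Day42 replicate 3, 12 were tested, and 0 rose and 4 fell, where 2416 of 21827 genes tested rose and 4859 fell. POU3F4, a POU homeodomain factor, had 5, 10 and 0 counts on Day42 against 5431, 2589 and 2475 on Day21 (-9.83 ± 1.39, edgeR adjusted p = 0.00221). TCF4, a partner of proneural factors, fell by 1.69 ± 0.42 (edgeR adjusted p = 0.0182), a call kept in 8 of 16 alternatives. SOX4 fell by 1.12 ± 0.25 (edgeR adjusted p = 0.0118), though on log2(FPKM + 1) its change was -0.46 and not called. None of the 10 had an unadjusted p under 0.05 with a rise. DESeq2 called 0 higher and 3 lower, where it called 2121 of all 20156 genes higher and 5094 lower.

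Between Day42 and Day21, the relatives of the selectors are read against the same shares of all genes tested, 6.52% higher and 19.7% lower. Without Day42 replicate 3, 2416 of 21827 genes were called higher and 4859 lower. DESeq2 called 2121 of 20156 higher and 5094 lower. Of 15 GATA and LMX relatives and GATA cofactors, 9 were tested and edgeR called 0 in either direction between Day42 and Day21, with 0 at an unadjusted p under 0.05 and 1 called higher by DESeq2. Without Day42 replicate 3, 1 fell. LMX1A, the close relative of LMX1B, was at 0 in all Day42 libraries against 25, 8 and 31 counts on Day21, and it was not tested. GATA6 had 0, 0 and 4 counts on Day42 and TAL1, a GATA partner in blood and spinal cord, had 4, 0 and 0. LDB1, which bridges LIM factors, had 1187, 1639 and 6 counts on Day42 against 1798, 1089 and 953 on Day21 (edgeR adjusted p = 0.714). TRPS1, an atypical GATA factor, had 1374, 1755 and 2012 counts on Day42 against 341, 287 and 656 on Day21 (edgeR adjusted p = 0.168). It was the 1 gene of this list called higher over Day0, where 8.82% of all genes tested were. Of 18 ETS relatives of FEV, 16 were tested, 0 rose and 1 fell, with a median change of -1.22 beside -0.54 for all genes tested. Without Day42 replicate 3, 1 rose and 3 fell. Over Day0, 0 rose and 3 fell (ETV6, ELK1 and ELF3), where 8.82% of all genes tested rose and 4721 of 20156 fell. ELK1 was at 0 in all Day42 libraries, at least 14.0-fold lower (edgeR adjusted p = 0.0125). DESeq2 called 0 of these ETS genes higher and 4 lower, and 3 had an unadjusted p under 0.05, all lower. Without Day42 replicate 3, 1 rose and 3 fell.

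Because GATA2, GATA3 and LMX1B also mark other cells, markers of those cells were set beside them. Day42 libraries detected fewer genes of any kind, 10797 to 17101 against 24577 to 24740 on Day21. Markers at 0 or under 12 counts on Day42 are to be read beside that general loss. Pan-neuronal genes were high on Day42, with a summed FPKM of 3821 to 4192 against 311 to 376 on Day21, and 12 of 12 exceeded 12 counts in every Day42 library. Pluripotency genes summed to 0.042 to 2.50 FPKM on Day42 against 19.7 to 27.0 on Day21, with 0 or 1 of 10 above 12 counts on Day42. Blood and endothelial markers summed to 0.410 to 0.857 FPKM on Day42 against 0.664 to 0.914 on Day21, with 3 of 11 above 12 counts in each Day42 library, and HBG1, HBE1 and SPI1 at 0 in all of them. The highest was RUNX1 in replicates 1 and 2 (0.380 and 0.316 FPKM) and KDR in replicate 3 (0.769 FPKM). Markers of V2b and GABAergic neurons, where GATA2 and GATA3 also act, summed to 0 to 1.29 FPKM on Day42 against 1.81 to 3.57 on Day21, with 7 of 11 at 0 in all Day42 libraries. The sum of 0 is that of replicate 3. The highest was GAD1 in replicate 1 (0.830 FPKM) and LHX1 in replicate 2 (0.857 FPKM). Sensory and inner ear markers, which go with GATA3, summed to 0.0451 to 0.590 FPKM on Day42 against 1.03 to 1.49 on Day21, with 1 of 9 above 12 counts in each Day42 library.

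Midbrain dopamine and roof plate markers, which go with LMX1B, summed to 6.68 to 14.2 FPKM on Day42 against 2.80 to 4.07 on Day21, with 1 to 4 of 11 above 12 counts in a Day42 library. Of these markers, LMX1A, SLC6A3, PITX3, OTX2, MSX1 and WNT1 were at 0 in all Day42 libraries. TH had 1818, 2326 and 0 counts, NR4A2 40, 4 and 4 and CORIN 1791, 812 and 5275, and TH was called higher over Day21 once Day42 replicate 3 was left out. GATA2 and GATA3 are known to be high in trophoblast and amnion. Markers of these summed to 53.97 to 78.5 FPKM on Day42 against 25.3 to 39.5 on Day21. In a Day42 library, 3 to 5 of 14 were above 12 counts. Of 10 tested, 2 rose and 2 fell, where 6.52% of all genes tested rose and 19.7% fell. Without Day42 replicate 3, 3 rose and 2 fell, where 2416 of 21827 genes tested rose and 4859 fell. CGA, the common alpha subunit of glycoprotein hormones, had 4807, 1267 and 1717 counts on Day42 against 0, 5 and 0 on Day21 (10.00 ± 2.01, edgeR adjusted p = 0.013), and KRT18 rose by 1.16 ± 0.26 (edgeR adjusted p = 0.0117). TFAP2A, CDX2, KRT7, CGB5, GABRP and PGF were at 0 in all Day42 libraries. Glial markers summed to 1.09 to 3.63 FPKM on Day42 against 6.62 to 9.16 on Day21, with 1 to 5 of 10 above 12 counts in a Day42 library. Both sums that rose over Day21 had been higher on Day0. The midbrain and roof plate markers summed there to 22.14 to 39.25 FPKM and the trophoblast and amnion markers to 109.1 to 222.9 FPKM. Each Day0 sum was mostly 1 gene. OTX2 held 21.73, 38.8 and 24.91 FPKM in Day0 replicates 1, 2 and 3, and KRT18 held 104.3, 133.5 and 216.1. The higher Day0 sums therefore describe these 2 genes and not the lists as a whole. Over Day0, 2 of the 10 tested trophoblast and amnion markers rose and 5 fell, with KRT18 among the 5. In that comparison 8.82% of all genes tested rose and 4721 of 20156 fell. The part of the 2 sums that rose over Day21 in the values of LMX1B, GATA2 and GATA3 was not tested.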

How the data were processed

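RNA sequencing measured gene expression in 9 libraries. Per the labels' protocols, Trizol was used to extract total RNA, of which about 10 ng was put into a NEBNext low-input library. Cutadapt 1.9, FastQC and GRCh38 are named in the submitters' processing notes; aligner, counter and strand setting were not given in these sources. The authors deposited a raw count for each gene in each library, per the file headers. FPKM values stand beside the counts and were computed by the authors with a library total that was not stated.

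Genes passing filterByExpr were scaled by TMM and modelled with edgeR 4.0.16 (quasi-likelihood, R 4.3.3), all libraries together and each day with its own mean. Residual degrees of freedom were 6, and prior degrees of freedom 2.42. The SE is the fold change divided by the square root of the F statistic. The prior count for log2 CPM was 2. Where a day was at 0 throughout, folds are bounds against 12 counts per library, averaged over its libraries. Scripts were tested on simulated data. Alternatives used DESeq2 1.42.0, limma 3.58.1 and statmod 1.5.0. Tables and plots used Python 3.11.15 with pandas 2.3.3, numpy 2.4.6 and matplotlib 3.10.9.

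The 4 genes, the lists and the naming rule were chosen with earlier results of these data known. The rule names the 4 genes, up to 4 called genes per list (the 2 most expressed where none was called), 7 known relatives and targets, the 4 most similar profiles per gene, and neighbours within 50 kilobases. List genes outside the rule were picked after their values were seen. Some list genes are counted but not reported by name. The labels state no link between same-numbered libraries beyond the number, and the correlations given with the alternatives cannot decide whether there is one.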

Additional observations from a re-analysis of the deposited data

How the results depend on the processing

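FEV and GATA3 kept their called rises in both comparisons with Day42 in 18 of 18 alternatives. Other calls moved. The Day21 difference of FEV from Day0 was called with DESeq2 (3.93), limma on log2(FPKM + 0.1) (1.71) and voom with library weights (5.74), and ranged from 3.35 to 8.59 when single libraries were left out. The GATA2 rise over Day21 lost its call with no filter (5.74), the replicate block (5.14), only the 2 days (5.63), limma without filter (1.15) and voom (3.32), and over Day0 with no filter (5.47), the block (5.51), only the 2 days (5.45) and limma without filter (1.14). Leaving out single libraries gave 3.42 to 6.255 over Day21 and 3.14 to 6.28 over Day0. Between Day21 and Day0, GATA2 changed sign with the block (0.37) and voom (2.575), from -0.83 to 0.65 without single libraries. LMX1B over Day0 was called with voom alone, on Day21 (3.70) and Day42 (6.44), and its step difference turned with voom (-0.97; -5.21 to 1.75 without single libraries). TAF3 turned with voom (-0.47; -0.59 to 1.20). The cause was not tested. GATA2 and LMX1B failed the FPKM filter and have no value in the filtered limma fits.

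Counts of genes called moved. For Day21 over Day0, 266 higher and 238 lower became 76 and 33 with the replicate block, 2550 and 2459 with only the 2 days, 1387 and 1565 with DESeq2, 623, 699 and 512 higher and 695, 645 and 643 lower with limma (pseudocount 1, 0.1, no filter), 3734 and 3191 with voom, and 91 to 1434 and 42 to 1460 without single libraries. For Day42 over Day21, 1315 higher became 617 with the block, 2121 with DESeq2, 2117 and 2204 with limma, and 621 to 2416 without single libraries, and 3980 lower became 1803 with the block and 1749, 1860 and 1475 with limma. For Day42 over Day0, 1778 higher became 1051 with the block and 1072 to 3220 without single libraries, and 4721 lower became 2659 with the block and 2083, 2150 and 1862 with limma. Same-numbered libraries did not deviate together from their day means (correlations of -0.225 to 0.0266). With 3 libraries per day, this cannot decide whether they share a differentiation, which the labels leave unsaid. Counts near 12 per library limit the Day0 and Day21 values of all 4 genes.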
